A study of Rattus norvegicus with 18 samples.

Results

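The response of Sprague Dawley (SD) rat blood to procainamide was described from 10 of the 18 arrays of the series, which the labels name as 5 SD procainamide and 5 SD control arrays. The rats were male and of the Sprague Dawley strain, an outbred stock. The treated group received 40 mg/kg of procainamide and the control group sterile water. Blood was drawn when treatment ended, from the venous sinus of the eye. The route, the length of treatment, the age of the rats and the number of animals behind an array are not given in the sources used here, so the p-values rest on a spread between samples that may be technical. The other 8 arrays are 4 control and 4 procainamide arrays of male Brown Norway (BN) rats, an inbred strain, treated under the same labels. The series addresses which cellular and genetic factors go with differences between strains in drug-induced autoimmunity. The sample was labelled with Cy5 and hybridised beside a Cy3 reference, given by the labels as control replicate 1 of the same strain, so each value is a log2 ratio of sample over reference.

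Procainamide blocks cardiac sodium channels and is known for inducing a lupus-like autoimmune syndrome in some patients. It is also known to inhibit DNA methylation in T cells. Interferon gamma, a cytokine of activated T and NK cells, signals through its receptor to gamma-activated sequences (GAS) in promoters and induces the transcription factor IRF1. IRF1 and related factors bind interferon-stimulated response elements (ISRE). The induced genes include GTPases that attack intracellular microbes, chemokines that draw T cells, the immunoproteasome and peptide loading machinery of MHC class I, and enzymes of activated macrophages. NF-kB, the main inflammatory transcription factor, drives many chemokine genes.

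Sequence stretches of the promoters are shown for 6 genes that rose, since they hold the letters of these factors' motifs. The windows are RefSeq sequences of build GRCr8, 300 bases long, from 250 bases before to 50 after the annotated start. Of the 114 genes described with values here, 93 had a window. Capitals mark matches to the GAS letters TTCNNNGAA, the ISRE core or a simplified NF-kB form, all searched on both strands, and a GAS match can overlap an ISRE core match. The genes are the transcription factor Irf1 (chr10:38417685-38417984, plus strand), the GTPases Irgm (chr10:33742529-33742828, minus strand) and Gbp2 (chr2:234005477-234005776, plus strand), the T cell chemokine Cxcl9 (chr14:16006916-16007215, plus strand), the proteasome activator Psme2 (chr15:33052702-33053001, minus strand) and the chemokine Ccl19 (chr5:61761115-61761414, minus strand).
Irf1: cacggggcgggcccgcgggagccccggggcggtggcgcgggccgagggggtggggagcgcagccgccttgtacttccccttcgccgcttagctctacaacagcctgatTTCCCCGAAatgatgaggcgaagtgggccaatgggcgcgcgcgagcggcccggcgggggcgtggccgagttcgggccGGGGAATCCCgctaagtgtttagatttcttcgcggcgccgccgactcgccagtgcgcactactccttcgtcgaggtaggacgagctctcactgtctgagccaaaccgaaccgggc
Irgm: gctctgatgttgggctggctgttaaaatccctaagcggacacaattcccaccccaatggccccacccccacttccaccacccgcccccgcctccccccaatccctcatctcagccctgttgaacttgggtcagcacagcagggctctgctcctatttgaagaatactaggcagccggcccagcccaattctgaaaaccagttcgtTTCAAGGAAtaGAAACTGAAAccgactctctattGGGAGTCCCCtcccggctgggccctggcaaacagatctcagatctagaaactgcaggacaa
Gbp2: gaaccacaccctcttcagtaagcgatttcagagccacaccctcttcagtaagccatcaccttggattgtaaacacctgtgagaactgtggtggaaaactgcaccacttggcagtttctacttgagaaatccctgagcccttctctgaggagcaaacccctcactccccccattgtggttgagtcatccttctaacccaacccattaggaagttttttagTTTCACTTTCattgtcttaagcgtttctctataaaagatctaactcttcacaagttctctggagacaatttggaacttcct
Cxcl9: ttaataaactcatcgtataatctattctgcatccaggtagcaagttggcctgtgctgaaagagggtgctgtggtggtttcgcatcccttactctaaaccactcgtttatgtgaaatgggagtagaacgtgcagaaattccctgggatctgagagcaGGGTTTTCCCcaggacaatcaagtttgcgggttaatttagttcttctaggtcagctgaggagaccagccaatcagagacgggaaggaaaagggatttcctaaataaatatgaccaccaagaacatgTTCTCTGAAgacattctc
Psme2: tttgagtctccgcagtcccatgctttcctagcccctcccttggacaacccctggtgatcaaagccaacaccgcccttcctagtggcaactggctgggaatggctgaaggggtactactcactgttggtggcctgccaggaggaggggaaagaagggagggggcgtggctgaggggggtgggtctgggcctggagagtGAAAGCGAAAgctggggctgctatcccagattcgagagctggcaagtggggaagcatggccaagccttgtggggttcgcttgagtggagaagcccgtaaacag
Ccl19: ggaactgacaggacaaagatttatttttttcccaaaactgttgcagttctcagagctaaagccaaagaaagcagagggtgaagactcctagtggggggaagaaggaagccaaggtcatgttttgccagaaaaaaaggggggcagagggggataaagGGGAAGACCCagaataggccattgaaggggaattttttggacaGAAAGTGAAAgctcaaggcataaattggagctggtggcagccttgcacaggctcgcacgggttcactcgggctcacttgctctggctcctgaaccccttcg

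Counting the first transcribed base as 1, the Irf1 window held a GAS match at -142 to -134 and an NF-kB match at -65 to -56. Irgm had all 3 motifs within 45 bases of its start, with the GAS letters at -45 to -37, the ISRE core at -34 to -25 and the NF-kB letters at -11 to -2. The single match of Gbp2 was an ISRE core read on the other strand at -31 to -22. In Psme2 and Ccl19 the ISRE core lay at -53 to -44 and at -51 to -42. Ccl19 and Cxcl9 each held an NF-kB match at -94 to -85, and the GAS letters of Cxcl9 lay after the start, at 33 to 41. The windows of Hk3 and Acod1, the 2 largest rises, and of the risen genes Ass1 and Gpr84 held no match to any of the 3 motifs. All matches are descriptions of letters, not of binding.

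Over all 33469 windows of the table, 3.92% held the ISRE core, 8.87% the GAS letters and 16.7% the NF-kB form. Among genes that rose in SD blood, by the test given below, the ISRE core stood in 26 of 160 windows (16.2%), against 1 of 161 windows (0.621%) of genes that fell and 3.40% of the 12623 windows of all named genes tested. The GAS letters did not separate the groups in this way, with 8.12% of risen, 5.59% of fallen and 7.89% of tested genes. The NF-kB form stood in 28.1%, 23.6% and 18.6%. The median GC content was 57.7% in the windows of risen, of fallen and of all tested genes.

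**Figure D1:**
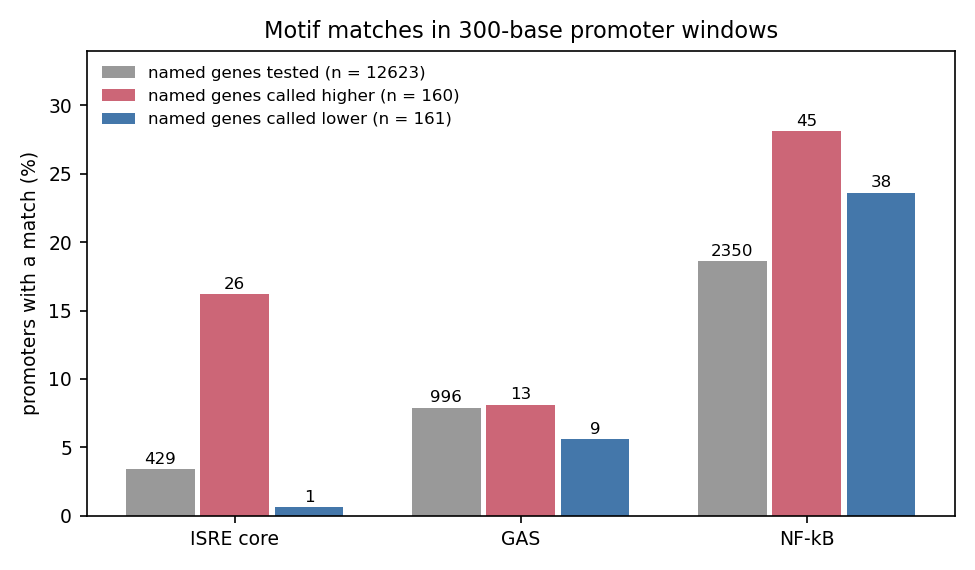
Share of promoter windows with a match (y axis, percent) for 3 motifs (x axis) among all named genes tested (grey), genes called higher (red) and genes called lower (blue) with procainamide in SD blood; numbers above the bars count the windows with a match. The ISRE core stood in 26 of 160 windows of risen genes and in 1 of 161 of fallen genes.

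Several arrays stood apart in ways that their labels do not explain. Of 18 genes of the exocrine pancreas, which makes digestive enzymes, 15 read over 1 on control array 5 and below 0 on the other 9 SD arrays. The trypsin gene Prss1 read 2.22 there and between -4.86 and -4.07 on the other 9 arrays. The median over the 18 was 1.74 on control array 5 and between -1.71 and -1.47 elsewhere. Control array 1, which by its label compares an RNA with itself, read -4.70 for Prss1, and the mean linear ratio over the 5 control arrays was 0.966 for Prss1 and 0.985 for chymotrypsinogen Ctrb1. What the Cy3 reference holds was not tested. By the labels, the same reference stands in both groups of the contrast.

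Procainamide array 3 was the highest of the 10 in 15 of 24 erythroid genes and the lowest in 1. The Rh-associated glycoprotein gene Rhag read 3.06 there and the haemoglobin chaperone gene Ahsp 2.66. The haem synthesis gene Alas2 read -0.49 on it, below the 5 controls, and haemoglobin Hbb 0.10, below 4 of them. In both genes this array was still the highest of the treated arrays. Its medians over T cell, B cell and MHC class II genes were the lowest of the 10, at -0.40, -0.55 and -0.48, and the lymphoid chemokine Cxcl13 read -2.16. The adipocyte gene Adipoq was high on this array (3.05), on procainamide array 1 (2.28) and on control array 4 (1.71). The label blood was set against 8 genes of lymphoid organ stroma (Ccl19, Ccl21, Cr2, Cxcl13, Madcam1, Nkx2-5, Tlx1, Vcam1), and 8 of 8 were well above background on all 10 arrays. So were 26 of 26 genes of connective tissue and matrix. Of all probes, 82.6% to 87.1% were well above background on a single SD array, so such counts alone do not mark a cell type. White cell markers were present as well, with 24 of 25 T cell, 17 of 17 B cell and 26 of 26 monocyte and macrophage genes well above background on every SD array.

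The 5 control arrays and procainamide arrays 1 to 3 lay on 1 slide, and procainamide arrays 4 and 5 on another, scanned on another day. The median Cy5 signal was 1700, 1655 and 1446 on procainamide arrays 3 to 5 and between 2152 and 2876 on the other 7. Per array, 82.6% to 87.1% of the probes gave a signal well above background. Precision is limited by the number of arrays, and the median SD of log2 ratios was 0.129 within the control group and 0.163 within the treated group. Where a result rests on array 5 of the controls or array 3 of the treated, its count without both is given below.

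**Figure D2:**
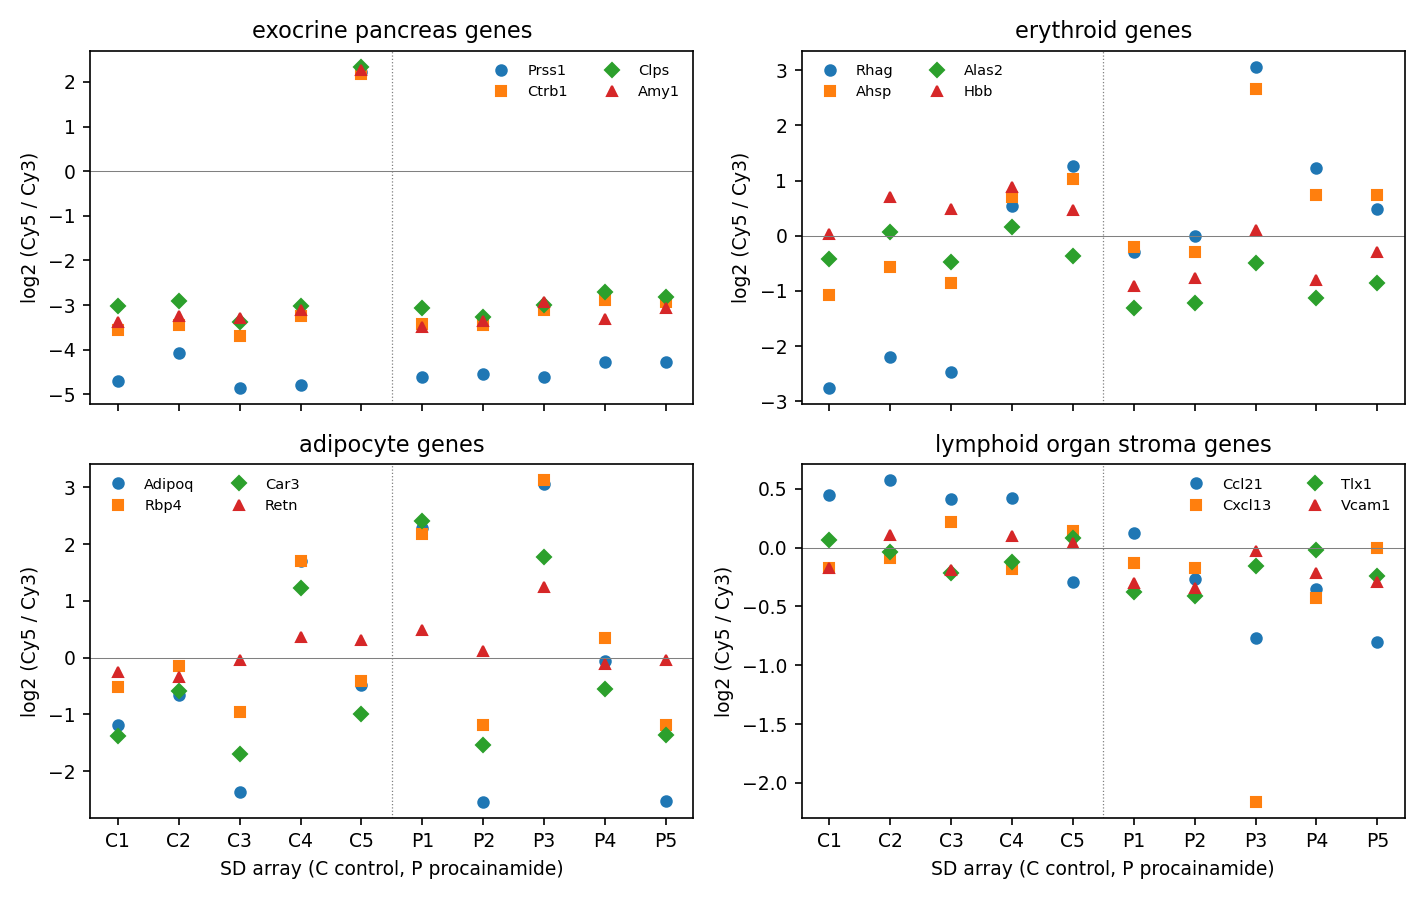
Log2 ratio of Cy5 sample over Cy3 reference (y axis) on each SD array (x axis, C1 to C5 control, P1 to P5 procainamide) for 4 genes of each of 4 tissues. Pancreas genes are high on control array 5, with Prss1 at 2.22, the erythroid genes Rhag and Ahsp are highest on procainamide array 3, with Rhag at 3.06, while Alas2 and Hbb are not, and adipocyte genes vary within both groups.

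Treated and control SD arrays were compared with limma, adjusting p over 30367 probes at a threshold of 0.05. Of these probes 689 (2.27%) passed, 348 higher and 341 lower with procainamide. Represented by 1 probe each, 191 of 15443 named genes rose (1.24%) and 217 fell (1.41%). Every treated array lay above every control array in 607 named genes (3.93%) and below in 623 (4.03%), and this held for 174 of the risen and 201 of the fallen genes. Most called genes thus did not overlap between groups, so a lack of overlap adds little to a call in the genes below. The median change was 0.53 among risen genes, -0.56 among fallen genes and -0.0036 over all named genes, whose median standard error (SE) was 0.109. A change over 1 log2 unit was reached by 20 risen and 17 fallen genes.

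A further fit used the 10 SD arrays without the BN arrays and took slide as a block, so that treated and control arrays were compared within slide 1 only. In it 165 named genes were higher (1.07%) and 190 lower (1.23%). The 18-array fit and this one both called 208 of the 408. Over all probes, the 10 SD arrays alone gave 1442 calls without the block and 584 with it. Of the 95 called genes described below, 61 were called with slide as a block. The call ended for the other 34, Il12rb1, Igtp, Cxcl10, Cxcr3, Oasl2, Dhx58, Bst2, Tapbp, B2m, Ccl5, Ccl21, Tnfrsf4, Lag3, Nkg7, Kif11, Gmnn, Bcl3, Cfb, Proc, Thbd, Mfap4, Col1a2, Col6a2, Pdgfra, Kdr, Klk1, Klk1c3, Klk1c8, Ahcy, Bak1, Tlr5, Nr1h3, Mvd and Cox8b (adjusted p = 0.0507 to 0.211). Since RNA of mixed cells was measured, fewer cells of a type and less RNA per cell cannot be told apart in any of these genes. In the values below, 5 numbers in a row are arrays 1 to 5 of a group, and a difference is procainamide minus control in log2 units ± SE. The SE and adjusted p of the 18-array fit rest on the spread within all groups, BN arrays included.

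**Figure D3:**
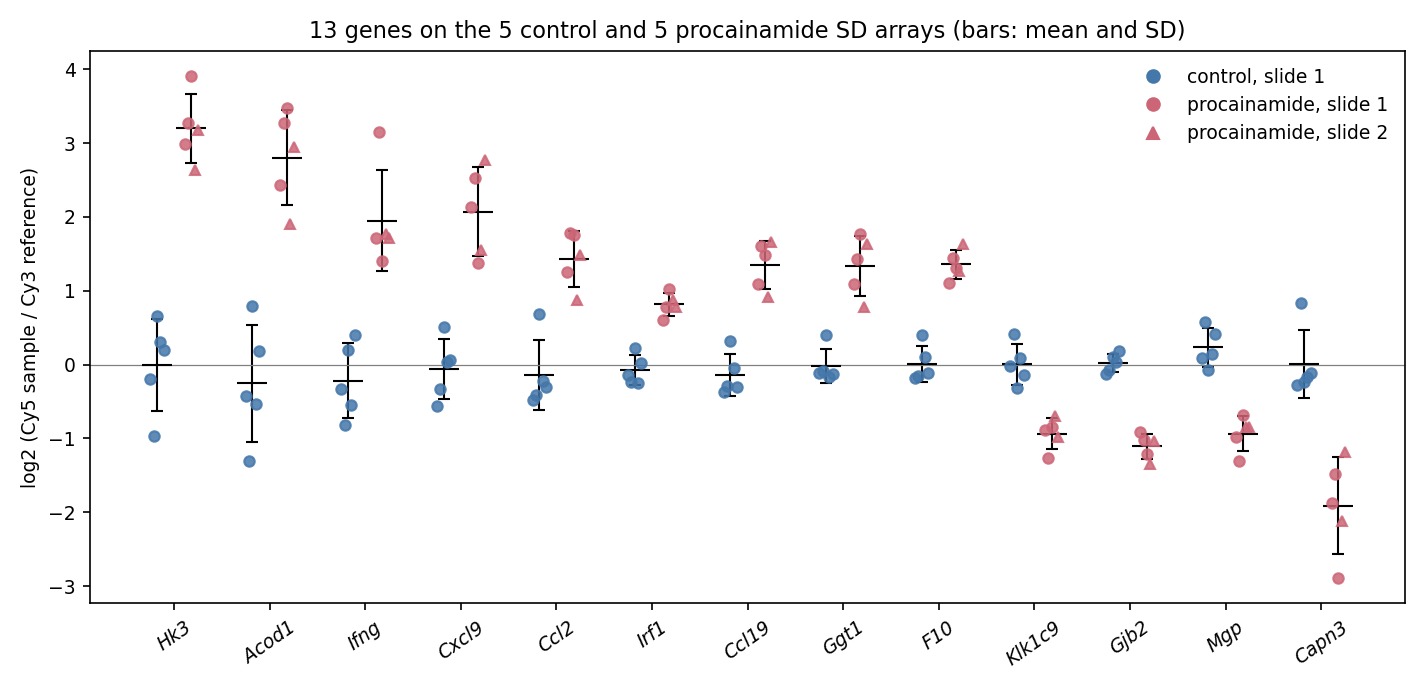
Log2 ratio of sample over reference (y axis) for 13 genes (x axis) on each SD array, with control arrays in blue, procainamide arrays in red, triangles for the slide with procainamide arrays 4 and 5, and bars for mean and SD of 5 arrays. In each of these genes the 5 treated arrays lie on 1 side of the 5 control arrays, a condition by which most of them were chosen.

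The largest rise belonged to Hk3, a hexokinase of white blood cells that traps glucose as glucose 6-phosphate. Its control arrays read -0.20, -0.97, 0.66, 0.30 and 0.20 and its treated arrays 2.99, 3.27, 3.91, 2.64 and 3.18 (difference 3.20 ± 0.29, adjusted p = 9.12e-05). Every treated array lay far above every control array, and control array 2 was the lowest. The ubiquitous hexokinase Hk1 and the inducible Hk2 did not pass, with differences of 0.14 (adjusted p = 0.684) and 0.13 (adjusted p = 0.581). Of 24 genes of glycolysis and hypoxia, 1 rose and 0 fell, with a median of 0.11. Acod1, which makes the antimicrobial metabolite itaconate in activated macrophages, read -0.42, -1.30, 0.80, -0.53 and 0.19 in controls and 2.43, 3.27, 3.47, 1.90 and 2.95 in treated rats (3.06 ± 0.42, adjusted p = 0.00162). Control array 2 was the lowest and procainamide array 4 the nearest of the treated, still above the highest control.

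In the list of itaconate, arginine and succinate metabolism 3 of 15 measured genes rose and 0 fell (median 0.15). The others were Ass1, which makes argininosuccinate for arginine synthesis, and Gpr84, a receptor for medium-chain fatty acids on myeloid cells. Ass1 read -0.09, -0.46, 0.34, 0.05 and -0.01 in controls and 1.05, 1.75, 1.90, 0.90 and 1.41 with procainamide (1.44 ± 0.31, adjusted p = 0.0204), Gpr84 -0.19, -0.44, 0.71, 0.27 and 0.19 and 1.41, 1.83, 2.07, 1.44 and 1.77 (1.60 ± 0.32, adjusted p = 0.0131). The groups did not overlap in either gene. Both calls ended without control array 2 (adjusted p = 0.0751 and adjusted p = 0.0523), and that of Ass1 also without procainamide array 2, 3 or 5 (adjusted p = 0.0583, 0.0528 and 0.0514). Nampt, the NAD salvage enzyme, was at 0.75 and did not pass (adjusted p = 0.0767), though it did with slide as a block (adjusted p = 0.0462). Outside the list, Ggt1, which cleaves extracellular glutathione, read -0.11, -0.08, 0.40, -0.17 and -0.13 in controls and 1.09, 1.43, 1.77, 0.78 and 1.63 with the drug (1.36 ± 0.16, adjusted p = 0.00074). Txn1, the disulfide reductant thioredoxin, was higher on every treated array than on every control array (0.89 ± 0.12, adjusted p = 0.00162).

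Genes of the interferon gamma axis formed the largest group of risen genes among the lists. Of 30 measured members 12 rose and 0 fell, the median difference was 0.42 and 24 of 30 differences were positive. The list median was -0.13, -0.18, 0.16, -0.08 and -0.01 on control arrays and 0.35, 0.46, 0.22, 0.34 and 0.53 on treated arrays, without overlap. The count was 13 with the 10 SD arrays alone, 8 with slide as a block in these arrays, and between 7 and 12 with 1 SD array left out, lowest without control array 2 or procainamide array 5. It was 8 without control array 5 and procainamide array 3 together.

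The ligand itself rose: Ifng read -0.33, -0.82, 0.20, -0.54 and 0.40 in control and 1.72, 3.15, 1.40, 1.77 and 1.71 in treated blood (2.17 ± 0.39, adjusted p = 0.00788), a 4.49-fold difference in which procainamide array 2 stood above the rest. Il12rb1, a chain of the receptor for interleukin 12 that makes T and NK cells secrete interferon gamma, rose by 0.47 (adjusted p = 0.0268). Downstream, the transcription factor Irf1 read -0.14, -0.24, 0.23, -0.25 and 0.02 in controls and 0.61, 0.78, 1.03, 0.88 and 0.78 in treated rats (0.89 ± 0.11, adjusted p = 0.000984). Its highest control array was array 3, and no array of one group entered the range of the other.

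Among the GTPases, Irgm read -0.39, -0.40, 0.18, -0.16 and -0.11 in controls and 0.78, 1.04, 0.97, 1.02 and 1.06 in treated rats (1.15 ± 0.15, adjusted p = 0.00125), the treated arrays spanning less than the controls. Gbp2 read -0.16, -0.42, 0.17, -0.07 and 0.02 and 0.88, 1.32, 1.30, 0.61 and 0.72 (1.06 ± 0.17, adjusted p = 0.00339), while Gbp5 was higher by 0.92 ± 0.15, adjusted p = 0.0049. Ifgga2l1, a further interferon-inducible GTPase gene outside the list, rose by 1.07 ± 0.15, adjusted p = 0.00193. These 4 genes did not overlap between groups. Igtp did, at 0.43 (adjusted p = 0.0269), with control array 5 inside the treated range at 0.42. The GTPase Ifi47 was at 0.81 and did not pass (adjusted p = 0.136), nor did the feedback inhibitor Socs1 at 0.66 (adjusted p = 0.24).

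Of the chemokines that bind the T cell receptor Cxcr3, Cxcl9 read -0.56, -0.33, 0.51, 0.03 and 0.06 in controls and 2.14, 2.53, 1.37, 1.55 and 2.77 with procainamide (2.13 ± 0.29, adjusted p = 0.0013), a 4.38-fold difference. Cxcl10 rose less, by 0.53 ± 0.13, adjusted p = 0.0389. Cxcr3 itself rose by 0.48 ± 0.10, adjusted p = 0.0169, with 1 control array inside the treated range. The ubiquitin-like modifier Ubd rose 4.34-fold and read -0.55, -0.80, 0.46, -0.26 and 0.21 in controls and 1.38, 1.73, 2.51, 1.47 and 2.57 with the drug (2.12 ± 0.49, adjusted p = 0.0297). In Ubd the groups did not overlap, and its SD was 0.52 within controls and 0.57 within treated arrays. The SE of Ubd was 0.36 with slide as a block in the 10 SD arrays. Without control array 2 or procainamide array 5 the calls of Il12rb1, Igtp, Ubd, Cxcl10 and Cxcr3 ended: their adjusted p without control array 2 was 0.0982, 0.0915, 0.102, 0.127 and 0.0512. They ended without 5, 7, 6, 9 and 4 of the 10 SD arrays, with adjusted p up to 0.127. Ifng, Irf1, Irgm, Gbp2, Gbp5, Cxcl9 and Ifgga2l1 passed with each SD array left out in turn.

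**Figure D4:**
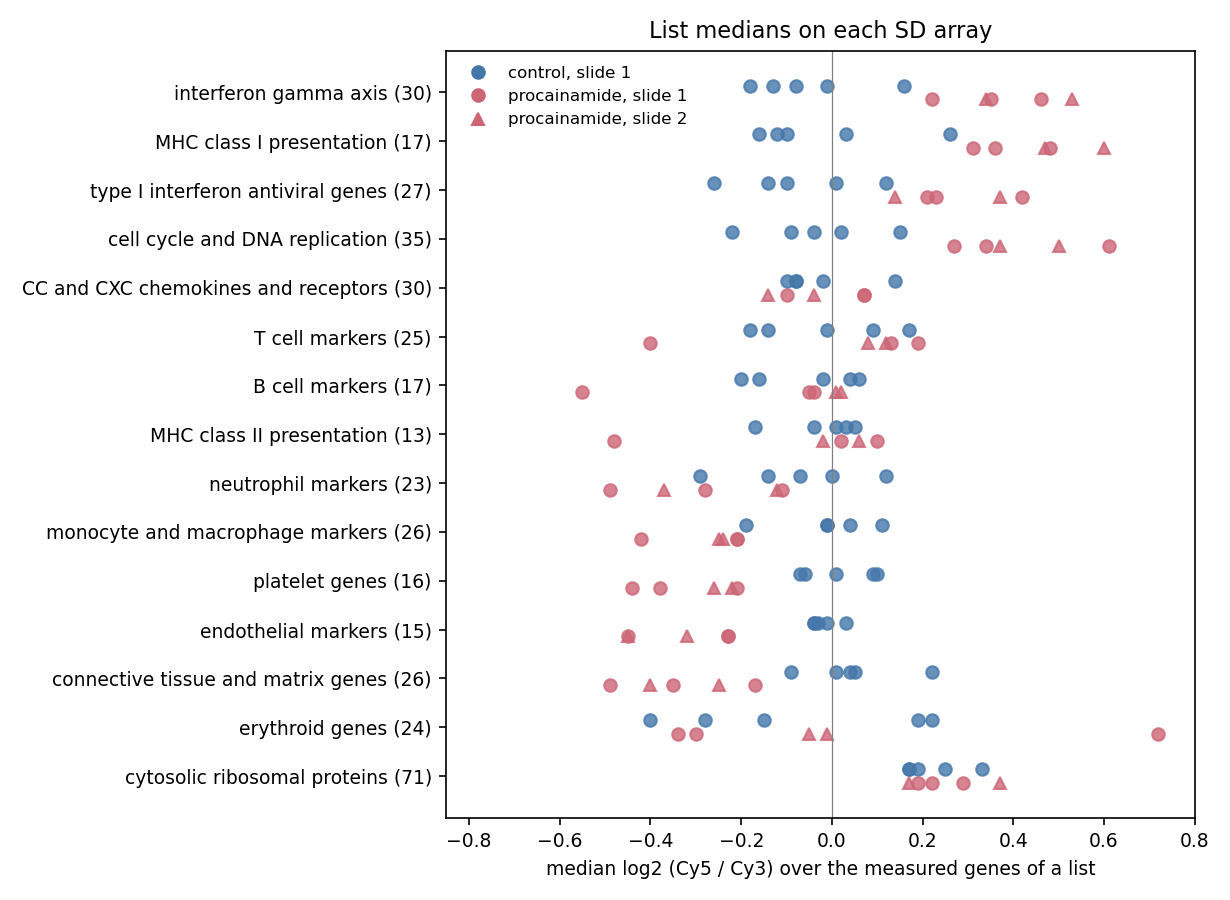
Median log2 ratio over the measured genes of a list (x axis) on each SD array, for 15 lists (y axis, number of measured genes in parentheses), with control arrays in blue, procainamide arrays in red and triangles for the second slide. Treated arrays lie above all control arrays for interferon gamma, MHC class I, type I interferon and cell cycle genes, whereas the 71 cytosolic ribosomal protein genes overlap.

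MHC class I presentation, by which cells show internal peptides to cytotoxic T cells, had 8 of 17 measured genes higher and 0 lower (median 0.45). On the 10 arrays the list median was -0.16, -0.12, 0.26, -0.10 and 0.03 in controls and 0.31, 0.48, 0.36, 0.47 and 0.60 in treated rats. The immunoproteasome subunit Psmb9 read -0.05, -0.26, 0.26, -0.13 and 0.10 in controls and 0.70, 0.98, 1.32, 0.67 and 0.86 with the drug (0.92 ± 0.15, adjusted p = 0.0039). The proteasome activator subunits rose together, Psme2 by 0.79 ± 0.11, adjusted p = 0.0013 and Psme1 by 0.56 ± 0.10, adjusted p = 0.00553. The class I heavy chain gene RT1-A1 read 0.28, -0.03, 0.24, 0.18 and 0.07 and 0.62, 0.83, 0.57, 0.89 and 0.82 (0.60 ± 0.08, adjusted p = 0.00171), and the related RT1-N3, outside the list, rose by 0.86 ± 0.15, adjusted p = 0.00734. RT1 genes are near-identical copies of each other, so a probe may read more than 1 of them. None of these 5 genes overlapped between the groups.

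The peptide transporter Tap1, its partner Tapbp, the immunoproteasome subunit Psmb10 and the light chain B2m rose by 0.75, 0.42, 0.45 and 0.76 (adjusted p = 0.016, 0.0204, 0.0227 and 0.0417). These 4 calls ended without control array 2 (adjusted p = 0.056, 0.0743, 0.0831 and 0.116) and without procainamide array 5 (0.0519, 0.0608, 0.0552 and 0.117), and without 3, 4, 5 and 8 of the 10 SD arrays in all. The list's count lay between 4 and 8 with 1 SD array left out. It was 10 with the 10 SD arrays alone, 6 with slide as a block in them and 5 without control array 5 and procainamide array 3. MHC class II presentation, restricted to professional antigen-presenting cells, had 0 of 13 genes called and a median of -0.11. The 32 genes of the constitutive proteasome had 0 calls and a median of 0.06.

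Antiviral genes known from type I interferon, many of which also respond to interferon gamma, had 4 of 27 measured members higher and 0 lower (median 0.36). Oasl2, of the oligoadenylate synthetase family, read -0.48, -0.37, 0.28, -0.13 and 0.29 in controls and 0.42, 0.77, 1.00, 0.81 and 1.12 in treated rats (0.91 ± 0.16, adjusted p = 0.00707). Parp14, an ADP-ribosyltransferase, rose by 0.54 ± 0.10, adjusted p = 0.01. In Dhx58, a helicase of the RNA-sensing RIG-I family, the difference was 0.83 ± 0.17, adjusted p = 0.0147. For Bst2, which tethers virus particles to the cell, it was 0.73 ± 0.18, adjusted p = 0.0408, with procainamide array 1 inside the control range. Isg15 and Siglec1, both widely used as interferon signature genes in lupus, did not pass at 0.97 (adjusted p = 0.0629) and 0.58 (adjusted p = 0.0602), although all treated arrays lay above all control arrays in both. Siglec1 passed with slide as a block (adjusted p = 0.0178) and with brightness as a term (adjusted p = 0.0212).

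The call of Dhx58 ended without control array 2 (adjusted p = 0.0549) and that of Bst2 without 7 of the 10 SD arrays, up to 0.134 without control array 2. The list's count was 9 higher and 1 lower with the 10 SD arrays alone. With slide as a block it was 3, of which Parp14 (adjusted p = 0.0383) was the 1 among the 4 named calls, while Oasl2 (adjusted p = 0.0734), Dhx58 (adjusted p = 0.0525) and Bst2 (adjusted p = 0.182) did not pass. The count was 2 to 5 with 1 SD array left out, lowest without control array 2, and 2 without control array 5 and procainamide array 3. Outside the list, the interferon-inducible genes Apol9a and Rtp4 rose by 0.84 (adjusted p = 0.0125) and 0.84 (adjusted p = 0.021), the latter not without control array 2 (adjusted p = 0.073) or 5 other single arrays. By promoter, 3 of 3 called antiviral genes with a window held the ISRE core, as did 10 of 17 not called. Among MHC class I genes it stood in 5 of 8 called and 3 of 8 not called, and in the interferon gamma axis in 6 of 11 called and 1 of 14 not called. The GAS letters stood in 4 of 11 called and 5 of 14 not called genes of the interferon gamma axis. Among MHC class I genes GAS stood in 0 of 8 called and 2 of 8 not called. Among antiviral genes it stood in 2 of 3 and 3 of 17. In the same order of lists, the NF-kB form stood in 8 of 11 and 6 of 14, in 5 of 8 and 2 of 8, and in 1 of 3 and 2 of 17.

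Of 30 chemokine and chemokine receptor genes, 6 rose and 1 fell, with a median of 0.02. The counts were 7 and 2 with the 10 SD arrays alone, and 6 and 1 with slide as a block in them. With 1 SD array left out, 4 to 6 rose and 0 to 1 fell. Without control array 5 and procainamide array 3 the counts were 4 and 1. Ccl2, which recruits monocytes, read -0.48, -0.41, 0.69, -0.22 and -0.30 in controls and 1.26, 1.78, 1.75, 0.87 and 1.49 with procainamide (1.57 ± 0.24, adjusted p = 0.00276). Ccl19, which guides T cells and dendritic cells in lymphoid organs, read -0.37, -0.29, 0.32, -0.05 and -0.30 and 1.09, 1.60, 1.48, 0.91 and 1.66 (1.49 ± 0.17, adjusted p = 0.000379). Ccl20, which attracts cells bearing Ccr6, read -0.12, -0.53, 0.19, -0.14 and -0.43 and 1.08, 1.54, 1.40, 0.85 and 1.15 (1.41 ± 0.17, adjusted p = 0.00074). In these 3 genes all treated arrays lay above all controls. Ccl20 was well above background on 2 of 5 control and 5 of 5 treated arrays, which makes its size inexact. Ccl4, which draws T cells and monocytes, rose by 0.95 ± 0.15, adjusted p = 0.00339.

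The T cell and monocyte attractants Ccl5 and Ccl7 rose by 0.86 ± 0.20, adjusted p = 0.0277 and 1.35 ± 0.32, adjusted p = 0.035, and each call ended without 6 of the 10 SD arrays. Their adjusted p was 0.0789 and 0.0768 without control array 4, and that of Ccl7 0.113 without control array 2. Ccl21, which shares the receptor of Ccl19, was the 1 that fell: controls read 0.45, 0.57, 0.41, 0.42 and -0.29 and treated arrays 0.12, -0.27, -0.77, -0.35 and -0.80 (-0.73 ± 0.17, adjusted p = 0.036). Control array 5 read like the treated arrays, and the call ended without 8 of the 10 SD arrays (up to 0.12 without control array 2) and with slide as a block (adjusted p = 0.211). Ccl19 and Ccl21, ligands of 1 receptor made by stroma of lymphoid organs, moved in opposite directions.

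Of 25 T cell markers 0 passed (median 0.10), and of 17 B cell markers 0 (median -0.09), with procainamide array 3 lowest in both lists. With 1.24% of named genes higher and 1.41% lower, a count of 0 in lists of this size is near the background. Among 17 genes of helper T cell subsets 2 rose. Il21, a cytokine of follicular helper T cells that acts on B cells, read -0.25, -0.32, -0.20, 0.01 and -0.04 in controls and 0.54, 0.62, 0.83, 0.59 and 0.68 in treated rats (0.81 ± 0.11, adjusted p = 0.00124). The treated arrays lay closer to each other than to any control array. The costimulatory receptor Tnfrsf4 (OX40) rose by 0.57 ± 0.12, adjusted p = 0.0147, and its call ended without control array 2 (adjusted p = 0.056). Lag3, an inhibitory receptor of activated T cells outside that list, rose by 0.70 ± 0.15, adjusted p = 0.0233, with calls lost without 5 of the 10 SD arrays (up to 0.076 without control array 2).

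Of 23 NK cell and cytotoxic genes 3 rose and 0 fell (median 0.13). The granzyme Gzmm read 0.33, 0.24, 0.30, 0.22 and 0.31 in controls and 0.75, 0.97, 1.1, 0.69 and 0.76 in treated rats (0.58 ± 0.12, adjusted p = 0.0145). The granule protein Nkg7 and the receptor Klrc1 rose by 0.49 (adjusted p = 0.0227) and 0.80 (adjusted p = 0.0415). Ncr1, the NK cell receptor NKp46, read lower on every treated array than on every control array, yet its difference of -1.10 did not pass (adjusted p = 0.0811). Without control array 2 none of the 3 calls held (adjusted p = 0.0503, 0.0645 and 0.104). Those of Nkg7 and Klrc1 ended without 7 and 8 of the 10 SD arrays. Without control array 5 and procainamide array 3 the count was 1.

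Cell cycle and DNA replication genes showed a shift shared by nearly all members but few calls. Of 35 measured genes 34 had a positive difference, the median was 0.43, and in 21 every treated array lay above every control array, a pattern found in 3.93% of all named genes. The list median was -0.09, -0.22, 0.15, -0.04 and 0.02 on control arrays and 0.27, 0.34, 0.61, 0.37 and 0.50 on treated arrays. Only 2 of the 35 passed. They were Mcm2, of the replicative helicase (-0.02, -0.22, 0.12, -0.03 and 0.01 in controls, 0.27, 0.67, 0.69, 0.54 and 0.56 with the drug, 0.57 ± 0.13, adjusted p = 0.0318), and Kif11, a motor of the mitotic spindle (0.63 ± 0.15, adjusted p = 0.0358). The number called was 18 in a fit of the 10 SD arrays alone and 3 with slide as a block in them. It was 0 without control array 1, 2, 4 or 5 or procainamide array 3, 4 or 5, at most 3 without any other SD array, and 0 without control array 5 and procainamide array 3 together. Adjusted p without control array 2 was 0.11 for Mcm2 and 0.12 for Kif11. On procainamide array 3, which was the highest in 15 of 24 erythroid genes, the list median was the highest of the 10, and the part of those cells in the shift was not tested.

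Proliferation genes outside that list included Chaf1b, a histone chaperone subunit that follows the replication fork, which read 0.07, -0.23, 0.10, 0.10 and 0.09 in controls and 0.47, 0.81, 1.14, 0.72 and 1.07 in treated rats (0.82 ± 0.12, adjusted p = 0.00256). Mastl, a kinase of mitotic entry, rose by 0.66 ± 0.11, adjusted p = 0.00385. Both passed with each SD array left out and with slide as a block (adjusted p = 0.0326 and 0.0256). Gmnn, the replication licensing inhibitor geminin, rose by 0.62 (adjusted p = 0.0175). Its call ended without control array 2 (adjusted p = 0.0651) and without procainamide array 5 (adjusted p = 0.0561). Chaf1b, Mastl and Gmnn were chosen after their values were seen. The mitotic phosphatase Cdc25b, also outside the list, went the other way (-1.07 ± 0.21, adjusted p = 0.0125).

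Among 22 NF-kB targets and inflammatory cytokines 2 rose, with a median of 0.15. Bcl3, a nuclear partner of NF-kB, rose by 0.47 ± 0.09, adjusted p = 0.0135, and Icam1, the adhesion molecule of leukocytes and endothelium, by 0.38 ± 0.09, adjusted p = 0.0267. Without control array 2 both calls ended (adjusted p = 0.0526 and adjusted p = 0.0982), and that of Icam1 also without 4 other single arrays. In complement, the plasma defence cascade, 2 of 24 genes rose and 1 fell. C2, a protease of the classical pathway, read -0.45, -0.50, 0.01, -0.13 and -0.20 in controls and 0.77, 1.21, 1.27, 0.90 and 0.98 with the drug (1.28 ± 0.21, adjusted p = 0.0049), and both of its probes were called. Cfb, its counterpart in the alternative pathway, rose by 0.49 ± 0.12, adjusted p = 0.0342. The call of Cfb ended without 8 of the 10 SD arrays, among them control array 1 (adjusted p = 0.0733). C3 and C6 lay higher on all treated arrays than on all controls without passing, at 0.79 (adjusted p = 0.0691) and 1.61 (adjusted p = 0.11). Both passed with slide as a block (adjusted p = 0.0202 and adjusted p = 0.0219).

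Of genes with roles in clotting, 4 are given that were picked after their values were seen, with no list or count behind them. F10, the zymogen of the clotting protease factor X, read -0.18, -0.16, 0.40, 0.10 and -0.12 in controls and 1.11, 1.45, 1.31, 1.27 and 1.64 in treated rats (1.35 ± 0.24, adjusted p = 0.00728). The anticoagulant protein C gene Proc, its activating receptor thrombomodulin Thbd and the inhibitor Tfpi2 fell by 0.65 (adjusted p = 0.0305), 0.46 (adjusted p = 0.015) and 0.99 (adjusted p = 0.0147). Proc was well above background on 4 of 5 treated arrays. The calls of these 3 falls ended without control array 2 (adjusted p = 0.0773, 0.0579 and 0.055), and that of Proc without 8 SD arrays in all. Outside these, Timp1, a metalloproteinase inhibitor, read -0.25, -0.05, 0.17, -0.06 and 0.28 in controls and 0.76, 1.1, 1.48, 0.88 and 1.39 with procainamide (1.11 ± 0.21, adjusted p = 0.0109).

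Markers of monocytes and macrophages included 3 of 26 genes that fell, Cd300le, Cd300c2 and Nr4a1, and 0 that rose (median -0.21). Of the 26 differences 16 were negative and 10 positive. Cd300le, a CD300 family receptor of myeloid cells, read -0.20, 0.21, 0.05, 0.12 and 0.29 in controls and -0.80, -0.80, -1.56, -1.17 and -0.94 in treated rats (-1.15 ± 0.28, adjusted p = 0.0389). Cd300c2 fell by 1.11 (adjusted p = 0.0391). From outside the list, the myeloid lectin Clec4a2 fell by 0.89 (adjusted p = 0.0353) and Igsf7 l1, among the 15 largest falls, by 1.04 (adjusted p = 0.0321). In all 4 the groups did not overlap. Each of these calls ended without 9 of the 10 SD arrays, at 0.112, 0.113, 0.0976 and 0.0926 without control array 2. With slide as a block their adjusted p was 0.0173, 0.00479, 0.0129 and 0.00486, and the list's count was 6, against 10 with the same 10 arrays and no block. Without control array 5 and procainamide array 3 it was 0.

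The mannose receptor Mrc1, a macrophage marker, was at -1.11 and did not pass (adjusted p = 0.0518), though it did with slide as a block (adjusted p = 0.0476). Procainamide array 3 had the lowest list median, at -0.42, against -0.25 to -0.21 on the other treated arrays and -0.19 to 0.11 in controls. The orphan nuclear receptor Nr4a1, which is needed for non-classical monocytes, read 0.13, -0.15, -0.02, -0.02 and 0.20 in controls and -0.66, -0.60, -0.78, -0.59 and -0.57 with procainamide (-0.67 ± 0.12, adjusted p = 0.00866). Klf4, a transcription factor of monocyte differentiation, read -0.03, -0.02, 0.06, 0.00 and 0.04 and -0.61, -0.54, -0.86, -0.74 and -0.54 (-0.67 ± 0.08, adjusted p = 0.000984). The controls of Klf4 lay close together, and every treated array was far below the lowest of them. Both factors passed with each SD array left out. Nr4a1 and Klf4 were also the 2 calls among 25 immediate early genes (median 0.03), where 16 differences were positive. Klf4 is not in the monocyte list. Of 23 neutrophil markers 0 passed, with a median of -0.13, and of 20 eosinophil, basophil and mast cell markers 0, with a median of -0.05.

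Genes of connective tissue and matrix fell, 5 of 26 with 0 that rose and a median of -0.35; 24 of 26 differences were negative. Matrix Gla protein Mgp, an inhibitor of calcification, read 0.09, 0.58, -0.07, 0.14 and 0.42 in controls and -0.98, -1.31, -0.68, -0.85 and -0.85 in treated rats (-1.17 ± 0.18, adjusted p = 0.00305). Mfap4, of elastic fibres, read -0.33, 0.51, 0.26, -0.51 and -0.48 and -0.72, -1.35, -2.48, -1.0 and -1.72 (-1.34 ± 0.31, adjusted p = 0.0297), and Col1a2, Col6a2 and the growth factor receptor Pdgfra fell by 0.62, 0.64 and 0.34 (adjusted p = 0.0164, 0.0244 and 0.0464). Aspn, a small proteoglycan outside the list, fell by 1.02 (adjusted p = 0.0169). The groups did not overlap in these 6 genes. Without control array 2, the highest control array in most of them, the calls of Mfap4, Col1a2, Col6a2, Pdgfra and Aspn ended (adjusted p = 0.106, 0.0627, 0.0825, 0.113 and 0.0631), and that of Pdgfra ended without any 1 of the 10. The count was 7 with the 10 SD arrays alone and 1 with slide as a block in them, 1 to 8 with 1 SD array left out, and 1 without control array 5 and procainamide array 3.

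On the single arrays the connective tissue list median was 0.01, 0.22, -0.09, 0.05 and 0.04 in controls and -0.17, -0.35, -0.49, -0.25 and -0.40 in treated rats. Control array 2, the highest, and procainamide array 3, the lowest, set the ends of the range. Endothelial markers had 1 of 15 lower, the vascular growth factor receptor Kdr (-0.51 ± 0.10, adjusted p = 0.00977), with a median of -0.25. Kdr passed with each SD array left out and not with slide as a block (adjusted p = 0.0751). Its ligand gene Vegfa was at -0.60 and did not pass (adjusted p = 0.0538).

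Muscle, epithelial and eye genes had 4 of 23 lower, Capn3, Gjb2, Mal and Tac3, and 0 higher (median -0.20). The largest fall of all was that of Capn3, a calpain known from muscle and lens, which read -0.27, 0.83, -0.24, -0.17 and -0.11 in controls and -1.87, -1.48, -2.89, -2.12 and -1.18 with procainamide (-1.91 ± 0.27, adjusted p = 0.00187), a 3.77-fold difference. Gjb2, a gap junction protein of epithelia, read -0.13, -0.07, 0.10, 0.03 and 0.18 and -0.91, -1.02, -1.21, -1.34 and -1.04 (-1.13 ± 0.16, adjusted p = 0.00211). Among the 15 largest falls were also the myelin and epithelial protein Mal (-1.14 ± 0.26, adjusted p = 0.0276), the neurokinin B gene Tac3 (-1.13 ± 0.25, adjusted p = 0.0241), the mitotic phosphatase Cdc25b (-1.07 ± 0.21, adjusted p = 0.0125), the cold-shock protein Ybx3 (-1.01 ± 0.25, adjusted p = 0.041) and the muscle form of a cytochrome oxidase subunit, Cox8b (-1.05 ± 0.21, adjusted p = 0.0147). Cox8b was well above background on 2 of 5 treated arrays, which leaves its size inexact.

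Capn3 and Gjb2 passed under each single array left out, whereas Ybx3 lost the call without any 1 of the 10, Mal without 8, Tac3 without 5, and Cdc25b and Cox8b without control array 2 alone. Adjusted p without that array was 0.132, 0.0652, 0.0862, 0.0501 and 0.0549 in this order. The list's count was 2 without control array 5 and procainamide array 3, and 2 to 4 with 1 SD array left out.

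Kallikreins, serine proteases best known from salivary and other glands, were lower in 6 of 15 measured genes and higher in 0 (median -0.09). Klk1c9 read -0.02, 0.41, -0.32, 0.09 and -0.14 in controls and -0.89, -1.26, -0.84, -0.70 and -0.98 in treated rats (-0.94 ± 0.14, adjusted p = 0.00247), and Klk1c12 fell by 0.56 (adjusted p = 0.0107). Klk1c2 read -0.28, 0.65, -0.30, 0.20 and -0.17 and -0.96, -1.48, -0.90, -0.90 and -1.26 (-1.12 ± 0.23, adjusted p = 0.0154). Klk1, Klk1c3 and Klk1c8 fell by 0.71, 0.87 and 0.77 (adjusted p = 0.0461, 0.0397 and 0.0408), with no overlap between groups in any of the 6. These genes are close copies of each other, so their probes may share signal and are not independent counts.

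Control arrays 2 and 4 were the highest in Klk1, Klk1c3 and Klk1c8, and those calls ended without control array 2 (adjusted p = 0.143, 0.128 and 0.127), without control array 4 (0.113, 0.105 and 0.107) and without 9, 7 and 8 SD arrays in all. That of Klk1c2 ended without control array 2 (adjusted p = 0.0549) and without procainamide array 2 (adjusted p = 0.05). The count was 6 with the 10 SD arrays alone and 3 with slide as a block in them, 2 to 6 with 1 SD array left out, and 2 without control array 5 and procainamide array 3. Klk1b3 was at -0.69 and did not pass (adjusted p = 0.168).

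Of 28 drug transporters and enzymes, among them the N-acetyltransferases that acetylate procainamide, 2 fell and 0 rose. Among them Gsta1, a glutathione transferase, fell by 0.47 (adjusted p = 0.0204), not so without control array 5 (adjusted p = 0.0534) or procainamide array 4 (adjusted p = 0.0509). The organic cation transporter Slc22a3, outside the list, fell by 0.75 (adjusted p = 0.0201), not so without control array 2 (adjusted p = 0.0738), control array 4 (adjusted p = 0.0524) or procainamide array 5 (adjusted p = 0.0571). The haem-degrading enzyme Hmox1 was at -0.71 and did not pass (adjusted p = 0.109).

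DNA methylation genes, which the background on procainamide makes of interest, had 1 of 14 called, the methyl-cycle enzyme Ahcy (0.37 ± 0.09, adjusted p = 0.0444), and a median of 0.07. Of 11 genes described as methylation-sensitive in T cells, Ifng was the 1 that rose (median -0.05). In 26 genes of apoptosis and clearance of dead cells 2 rose, among them the mitochondrial death effector Bak1 (0.52 ± 0.10, adjusted p = 0.0119), and the necroptosis kinase Ripk3, from outside the list, rose by 0.57 ± 0.12, adjusted p = 0.0151. Toll-like receptor Tlr5, the respiratory subunit Cox7b, the sterol receptor Nr1h3 and the sterol enzyme Mvd were the calls of their lists (1 of 20, 1 of 57 and 2 of 23), at 0.58, 0.40, 0.48 and 0.43. Over all named genes 1.24% rose, so single calls in lists of this size are near the background. Bak1 passed with each SD array left out, but not with slide as a block (adjusted p = 0.07), with scan day as a term (adjusted p = 0.0646) or with the replicate block (adjusted p = 0.0642). Without control array 2 the calls of Ahcy, Ripk3, Tlr5, Cox7b, Nr1h3 and Mvd ended (adjusted p = 0.143 for Ahcy, 0.0588 for Ripk3, 0.128 for Tlr5, 0.0552 for Cox7b, 0.0839 for Nr1h3 and 0.128 for Mvd).

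Several lists had no call in limma's fit, whose count over all probes was 4800 at an unadjusted p under 0.05. They were the erythroid genes (24, median 0.07), platelet genes (16, median -0.29), cytosolic ribosomal proteins (71, median 0.01), plasma cell and secretory genes (15, median -0.04), glucocorticoid-responsive genes (17, median -0.18), heat shock genes (9, median 0.07) and genes of the stress responses of translation and protein folding (18, median -0.01). Haemoglobin Hbb was at -1.05 (adjusted p = 0.142) and the haem synthesis gene Alas2 at -0.79 (adjusted p = 0.186), while Rhag of red cell precursors was at 2.01 with an SE of 1.1 (adjusted p = 0.393). The platelet genes Gp1bb and Treml1 were at -0.46 (adjusted p = 0.0772) and -0.67 (adjusted p = 0.0872). None of these differences passed in the 18-array fit, and Gp1bb did with slide as a block (adjusted p = 0.0196). With the block, the erythroid and platelet lists had 1 lower each and the glucocorticoid list 1 higher and 1 lower.

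The SD response was set beside that of BN rats, which share no array with it. Of the genes that rose in SD blood, 168 of 191 had the same sign in BN (88.0%), and of those that fell 188 of 217 (86.6%), against 50.9% of all named genes. The difference between the strains' responses passed in 9.49% of named genes, in 35 of the 191 and in 31 of the 217. By their slides the BN control and BN procainamide arrays were scanned on different days, so that a strain difference cannot be told apart from slide and day. Limma gave 0 probes for it with scan day as a term (1798 at an unadjusted p under 0.05) and 0 with array brightness as a term (2858), against 2987 (7651) without such terms.

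Within that limit, the SD rise of Ass1 was smaller than that in BN, 1.44 against 3.87 (difference of responses -2.43, adjusted p = 0.00393). Smaller SD rises also held for Ccl20 (1.41 against 2.62), Gbp2 (1.06 against 1.87), Irf1 (0.89 against 1.47), Klrc1 (0.80 against 1.95) and Icam1 (0.38 against 0.90), with adjusted p of 0.00712, 0.048, 0.0393, 0.0201 and 0.0173. Genes described here that rose in SD, read between -0.39 and 0.06 in BN and passed for the strain difference were F10 (1.35 against 0.06, adjusted p = 0.0313), Chaf1b (0.82 against -0.16, adjusted p = 0.0038), Mastl (0.66 against -0.13, adjusted p = 0.00535), Mcm2 (0.57 against -0.14, adjusted p = 0.0309), Gmnn (0.62 against -0.09, adjusted p = 0.0263), Bcl3 (0.47 against -0.39, adjusted p = 0.00209) and Mvd (0.43 against -0.18, adjusted p = 0.0197). Of the 6 kallikreins that fell, 3 fell less in SD, Klk1 at -0.71 against -2.86 (adjusted p = 0.00117), Klk1c3 at -0.87 against -2.97 (adjusted p = 0.00163) and Klk1c8 at -0.77 against -2.80 (adjusted p = 0.00131). The strain difference did not pass for Klk1c9 (-0.94 against -1.03, adjusted p = 0.839), Klk1c12 (-0.56 against -0.66, adjusted p = 0.744) or Klk1c2 (-1.12 against -2.05, adjusted p = 0.0972). Klf4 fell more in SD, at -0.67 against -0.25 (adjusted p = 0.0462). The strain difference did not pass for Hk3 (adjusted p = 0.198), Acod1 (adjusted p = 0.0747), Ifng (adjusted p = 0.191) or Cxcl9 (adjusted p = 0.15), with estimates of -0.92, -1.84, -1.26 and -1.0.

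**Figure D5:**
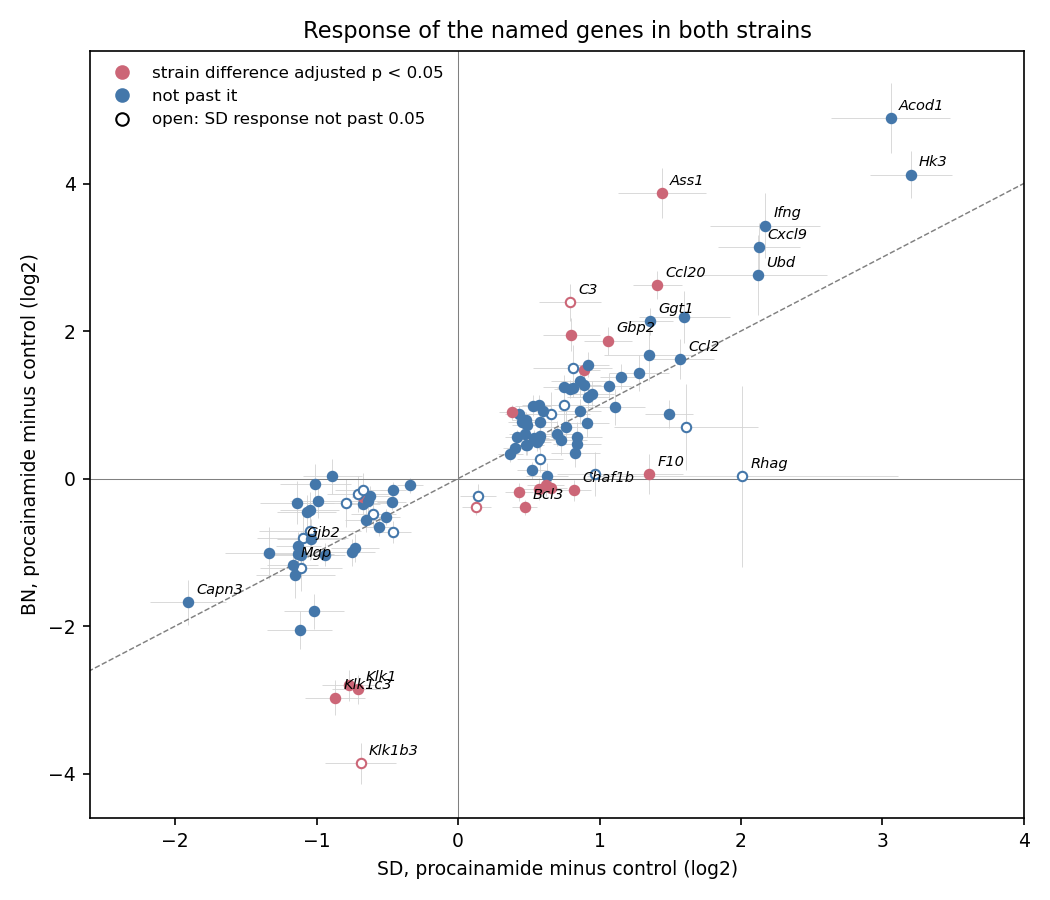
Log2 response to procainamide in SD (x axis) and BN (y axis) blood of the 114 genes described, with SE bars and a dashed line of equality; red marks a strain difference with adjusted p under 0.05, open symbols an SD response that did not pass. Klk1, Klk1c3 and Klk1b3 lie far below the line and Ass1 above it, and Chaf1b and F10 near a BN response of 0.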

How the data were processed

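RNA of rat blood was measured on Agilent 2-colour arrays of 62976 spots. Per the labels' protocols, RNA was isolated with Trizol and labelled after amplification. The deposited scanner output holds median spot and background intensity per channel, not normalized, and processed intensity, background-subtracted and dye-normalized by Feature Extraction 10.7.1.1, per the file headers. The log10 ratio of processed Cy5 over Cy3 was also computed by Feature Extraction, per the file headers. A table deposited by the authors gives 1 log2 ratio per probe, whose scale, centring and direction are not stated. Its columns lay on a line of slope 1 against the software's log ratios taken to base 2 (column medians of the SD arrays 0.0051 to 0.0575), so no gene was centred and the direction is that of Cy5 over Cy3. How the authors chose its probes is unknown.

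In R 4.3.3 with limma 3.58.1, median intensities were background-corrected by normexp (offset 50), normalized by loess within arrays with control spots at weight 0, and averaged per probe without flagged spots (0.0741% of values had only flagged ones). All 30367 non-control probes entered the fit, a mean for each of 4 groups over 18 arrays (14 residual degrees of freedom), with Benjamini-Hochberg adjustment, 2-sided, threshold 0.05. Through RefSeq, 18355 probes carried 1 symbol, 0 several and 12012 none, giving 15443 genes, each represented by its brightest probe. Of 78 called genes with several probes, 65 had all probes on the same sign. Among those described, 2 of 2 probes were called in Igtp, Gbp5, Ccl20 and C2. In Irf1, Gpr84, Parp14, RT1-A1, Mcm2, Thbd, Cdc25b and Ybx3, 1 of 2 was called. The code was tested on simulated data of 30367 probes, 200 of them changed. The fit called 44% of changes of 0.5 log2 units and 94% of those of 1. It made 21 false calls.

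The rule for named genes took the 15 largest rises and falls without overlap between groups, up to 4 genes of smallest p per list, and any member of the interferon gamma and itaconate lists. Some genes that this rule takes are not reported here, though they stay in the counts of their lists. Other genes named as outside a list, and the coagulation genes, were chosen after their values were seen, as were the lists of pancreas, adipocyte and lymphoid stroma genes. The members and all lists were chosen with earlier results of these data known. Alternatives covered slide, scan day, brightness, background correction, normalization, filters, the deposited matrix and single arrays left out. Control and treated replicate numbers did not pair: the correlations of same-numbered arrays' deviations lay between -0.463 and 0.129.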

Additional observations from a re-analysis of the deposited data

Results flagged for a closer look

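In groups of 5 arrays, a gap to the nearest other array beyond Dixon's 95% value set 1 array apart in 20 of 228 groups of gene values and 7 of 74 groups of list medians, where chance gives about 1 in 20. Control array 1 stood apart in Treml1 (-0.32). Control array 2 stood apart in Cxcl10 (-0.40), RT1-N3 (-0.19), Chaf1b (-0.23), Capn3 (0.83) and Mvd (-0.35). Control array 3 stood apart in Ggt1 (0.40), Ifgga2l1 (0.39), Gbp5 (0.11), Tap1 (0.39) and Ccl2 (0.69). Control array 5 stood apart in Igtp (0.42), Ccl21 (-0.29) and Gsta1 (0.24). Procainamide array 2 stood apart in Ifng (3.15). Procainamide array 3 stood apart in Cfb (0.57), Cd300c2 (-1.32) and Treml1 (-1.41). Procainamide array 5 stood apart in Vegfa (-0.83) and Slc22a3 (-1.10).

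Procainamide array 3 stood apart below the other treated arrays in the medians of MHC class II (-0.48), T cell (-0.40), B cell (-0.55), monocyte and macrophage (-0.42) and DNA methylation genes (-0.05). Procainamide array 2 stood apart above in immediate early genes (0.13), and control array 3 in the constitutive proteasome (0.12). Of the 27 such values, 8 belonged to procainamide array 3, 5 to control array 2 and 6 to control array 3.

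For 20 genes the SD and BN responses differed by limma's test of the difference (SD minus BN, log2, adjusted p under 0.05 over all probes). The difference was below 0 for Ass1 (-2.43), Irf1 (-0.58), Gbp2 (-0.81), Ccl20 (-1.21), Klrc1 (-1.15), Icam1 (-0.52), C3 (-1.6) and Klf4 (-0.42). It was above 0 for Hk2 (0.52), Mcm2 (0.71), Chaf1b (0.98), Mastl (0.79), Gmnn (0.71), Bcl3 (0.86), F10 (1.28), Klk1 (2.16), Klk1c3 (2.11), Klk1c8 (2.02), Klk1b3 (3.17) and Mvd (0.61). With scan day or brightness as a term no probe passed for the strain difference, and BN control and treated arrays lay on different slides, so strain, slide and day cannot be told apart.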

How the results depend on the processing

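The count of probes past the threshold for the SD response, 689, was 1442 in a fit of the 10 SD arrays alone, 251 with scan day as a term, 184 with the SD arrays of 1 slide only and 412 with array brightness as a term. With control array 5 and procainamide array 3 both left out, chosen after seeing the data, it was 235. Leaving out 1 array at a time gave 231 (without control array 2) to 973 (without BN control array 1), and the lowest SD counts otherwise were 326 without procainamide array 5 and 344 without procainamide array 2. The fit with a replicate block gave 478 probes and the slide block 584, where 339 were shared with the 689. Over background correction, filters, normalization, Cy5 alone and the deposited matrix the count lay between 529 and 878, with 46.5% to 59.7% higher. For the strain difference, 2987 probes passed, 0 with scan day as a term and 0 with brightness as a term in limma (1798 and 2858 at an unadjusted p under 0.05), 9162 with Cy5 alone and 1905 to 3862 with 1 array left out. The cause of these changes was not tested.

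Of the 95 called genes described, 26 were called under every alternative run, 38 with each SD array left out, 61 with slide as a block, 42 with scan day, 65 with brightness and 60 with the replicate block. No sign changed over 3874 pairs of gene and alternative, which is no independent support. Most of these genes were chosen for passing in the same data. The fits without a BN array, with the SD arrays alone or with the replicate block cannot change the SD difference itself. Genes without probes well above background on all arrays of a group (Ccl20, Proc, Cox8b) have inexact sizes.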

Other observations

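The alarmins S100a8 and S100a9, abundant proteins of neutrophils, varied widely within both groups and did not pass (limma's adjusted p = 0.771 and 0.779). Controls read from -1.07 to 0.97 and from -1.29 to 1.1, highest on control array 5. Treated arrays read from -0.93 to 0.60 and from -1.13 to 0.47, highest on procainamide array 2.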
